A study of Mus musculus with 6 samples.

Results

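The genes examined were those of ciliary transport and of the basal body, chosen by symbol, with earlier results of these data known. Their names begin with Bbs (Bardet-Biedl syndrome), Ift (intraflagellar transport), Nphp (nephronophthisis) or Cep (centrosomal protein) followed by a number. At least 10 counts were required in at least 3 of the 6 libraries. Of 31169 genes in the count table, 59 had such a symbol and 58 met the count minimum, 8 *Bbs*, 14 *Ift*, 3 *Nphp* and 33 *Cep* genes. All 58 met it in all 6 libraries and passed the filter of the test, so that no gene entered through its higher group alone. The gene left out was *Cep55*, which acts at the midbody of dividing cells and had between 1 and 7 counts per library. All 58 genes are annotated as protein coding, and the smallest count of any of them in any library was 26.

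The libraries were made from polyadenylated RNA of the whole retina of male C57BL/6 mice, 2 months old at harvest, that carried no transgene or mutation named in the labels. At 1 month of age, 3 saline retinas came from eyes that received 1 μl of saline in the anterior chamber, and 3 microbead retinas from eyes that received 1 μl of polystyrene microbeads of 15 μm diameter, a model of glaucoma in which the beads block the drainage of the eye and its pressure rises. Retinas were taken 4 weeks after the injection. The volume and the number of retinas are those of the labels, while the study's methods give a larger volume and its sequencing figure more retinas per group. The labels do not say whether the 3 retinas of a group came from separate animals, so p-values measure the spread between these retinas. The library names of the saline and microbead retinas belong to separate series, so that a difference between the series cannot be told apart from the injection.

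The libraries held 13574949 to 46481382 counts, with a ratio of 2.40 between the median depths of saline and microbead libraries. The 58 ciliary genes took 0.220 to 0.285% of the counts of a saline library and 0.305 to 0.329% of those of a microbead library. Rod marker genes summed to 64705 to 98023 CPM (counts per 1000000 of a library size scaled by TMM) in the 6 libraries, so that the libraries carried the RNA of photoreceptors in quantity. The share of counts on the mitochondrial genome was 3.19 to 3.57% in saline and 8.90 to 10.6% in microbead retinas. Summed levels of 14 rod, 9 cone, 12 RGC (retinal ganglion cell), 9 Müller glia, 8 microglia, 8 pigment epithelium and 7 dividing cell markers overlapped between the groups, but single markers moved. Among rod markers 10 of 14 had log2 fold changes below 0 and 1 fell (*Nrl*, -0.97). Among Müller glia markers 8 of 9 were below 0 and 2 fell (*Crym*, -1.41, and *Dkk3*, -1.03). Among cone markers 5 of 9 were below 0, with a median of -0.18, and 1 rose (*Arr3*, 1.44). These calls are by edgeR's test, and the genes were named after their values were seen. The 7 endothelial markers summed to 454 to 655 CPM in saline and 280 to 429 CPM in microbead retinas, without overlap, and 3 of them fell. Of 11 genes of motile cilia, 9 were in the table, of which *Rsph4a* had at most 3 counts in every library. Their sum was 34.0 to 55.5 CPM in saline and 59.2 to 74.7 CPM in microbead retinas, without overlap. Only 6 of them were tested, and 1 rose, *Ccdc39*, from a mean of 10.9 to 31.5 CPM. The groups overlapped in the other 5, and *Dnah9* went from 22.8 to 19.8 CPM. Both genes were named after their values were seen, and the summed difference is not one of the list as a whole. Saline replicate 1 had the lowest RGC sum (381 CPM against 948 to 1413 CPM in the other 5 libraries) and saline replicate 3 the highest pigment epithelium sum (258 CPM against 14.8 to 144 CPM). The part of these differences in the results below was not tested.

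Most vertebrate neurons and many glial cells carry a primary cilium, a microtubule-based antenna that grows from a basal body, the modified mother centriole. In photoreceptors the cilium is enlarged into the outer segment, and all membrane proteins of phototransduction must pass the connecting cilium, which corresponds to the transition zone of other cilia. IFT trains carry cargo along the axoneme, with the IFT-B complex moved outward by kinesin-2 and the IFT-A complex serving the return by dynein-2. The BBSome is an adaptor that takes membrane proteins out of the cilium, NPHP proteins form part of the gate at its base, and CEP proteins build and anchor centrioles. Defects in many of these genes lead to retinal degeneration in man.

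Ciliary genes are known targets of RFX transcription factors, which bind the X-box, a pair of inverted arms, near the start of transcription. The promoter windows of RefSeq (GRCm38.p6, from 250 bases before to 50 bases after each start) covered 48 of the 58 genes, with 56 windows. Both strands were searched for a single arm, GTTGCC or GTTACC, and for the inverted repeat, in which GTTNCC is followed after 0 to 3 bases by GGNAAC and which can contain such an arm. An arm was found for 20 of the 48 genes (41.7%), and for 5624 of all 27025 genes with a window (20.8%). The inverted repeat was found for 4 of the 48 (8.33%) and for 253 of the 27025 (0.936%). The 4 inverted repeats are shown because they are the closest matches to a full X-box, with the repeat in capitals. Starts are those of RefSeq, which can differ from the gene ends of GENCODE. That of *Bbs7* lies on the reverse strand at chr3:36613489-36613518, that of *Cep41* on the reverse strand at chr6:30693858-30693888, that of *Ift57* on the forward strand at chr16:49699226-49699254, and that of *Cep19* on the forward strand at chr16:32099803-32099832, past the start of transcription.

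*Bbs7*: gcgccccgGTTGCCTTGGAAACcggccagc
*Cep41*: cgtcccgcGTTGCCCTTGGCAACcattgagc
*Ift57*: gccctgcgGTTGCCTGGTAACggtgggga
*Cep19*: agccttctGTTGCCTTGGGAACgatcctcg

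**Figure D1:**
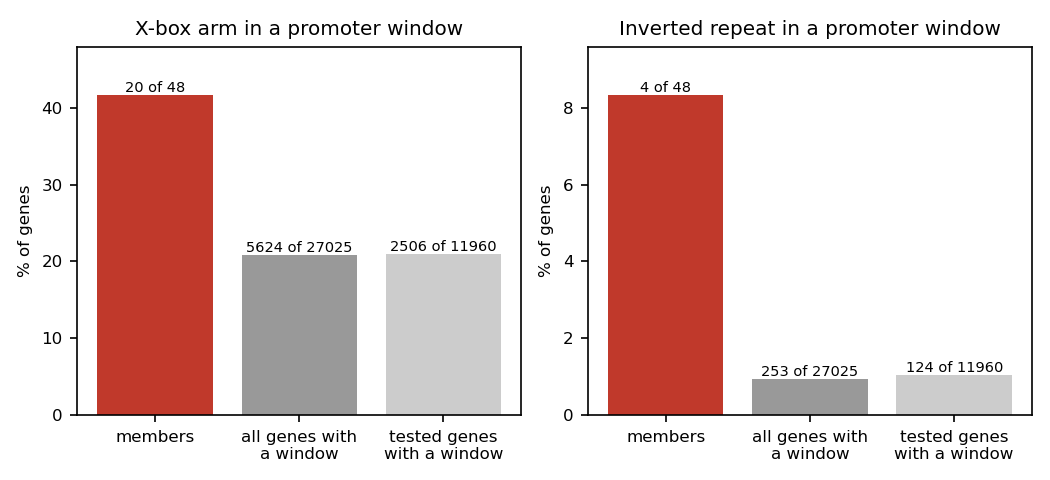
Percent of genes with at least 1 promoter window that holds an X-box arm (left) or inverted repeat (right), for the 48 ciliary genes with a window, all 27025 genes with a window and the 11960 tested genes with a window, with the numbers of genes above the bars. The ciliary genes reach 41.7% and 8.33%, and all genes 20.8% and 0.936%.

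Between saline and microbead retinas, 8 of the 58 ciliary genes rose after microbead injection (13.8%) and 0 fell, at an adjusted p-value under 0.05 from edgeR's quasi-likelihood test. Over all 17707 genes tested, 6.46% rose and 6.31% fell. The genes that rose were *Bbs2*, *Bbs5* and *Bbs7* of the BBSome, and *Cep70*, *Cep83*, *Cep95*, *Cep126* and *Cep192* of the centriole and centrosome. Of the 58 log2 fold changes, 42 were above 0 and 16 below, with a median of 0.27 against -0.03 over all tested genes. In 23 genes (39.7%) all microbead retinas were above all saline retinas, against 18.8% of all tested genes, and in 4 genes (6.90%) they were all below, against 18.9%. Without the adjustment, 21 ciliary genes were higher and 2 lower at p under 0.05, against 15.3% and 16.2% of all genes. DESeq2 called 11 higher and 1 lower, against 8.58% and 8.46% of the genes it tested. At more than 2-fold, the limit of the study's methods, 4 rose (6.90%) against 4.26% of all genes, but in either direction the shares were 6.90% and 7.05%. Whether more RNA per cell or a larger share of cells with these transcripts stands behind a difference cannot be told apart in whole retina.

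Summed over the 58 genes, the saline libraries held 2736, 2482 and 2356 CPM and the microbead libraries 3111, 3225 and 3174 CPM, means of 2525 ± 194 and 3170 ± 57.4 CPM (SD, n = 3 each). The groups did not overlap. Leaving out 1 library often moved the number of genes past the threshold. The number became 0 without saline replicate 2 and 0 without microbead replicate 3, fits in which 0.815% and 0.135% of all tested genes rose. It was 5 without saline replicate 3 (*Bbs5*, *Bbs7*, *Cep83*, *Cep95* and *Cep192*), or 8.62% against 4.32% of all genes. It was 4 without microbead replicate 1 (*Cep70*, *Cep83*, *Cep192* and *Cep250*), or 6.90% against 1.93%, and 3 without microbead replicate 2 (*Bbs5*, *Bbs7* and *Cep83*), or 5.17% against 2.28%. Without saline replicate 1 it was 10, or 17.2% against 7.83%. Over these 6 fits the median log2 fold change ran from 0.23 to 0.36. Saline replicate 3 held the lowest of the 3 saline values in 31 of the 58 genes, and microbead replicate 1 the highest value of all 6 libraries in 22.

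**Figure D2:**
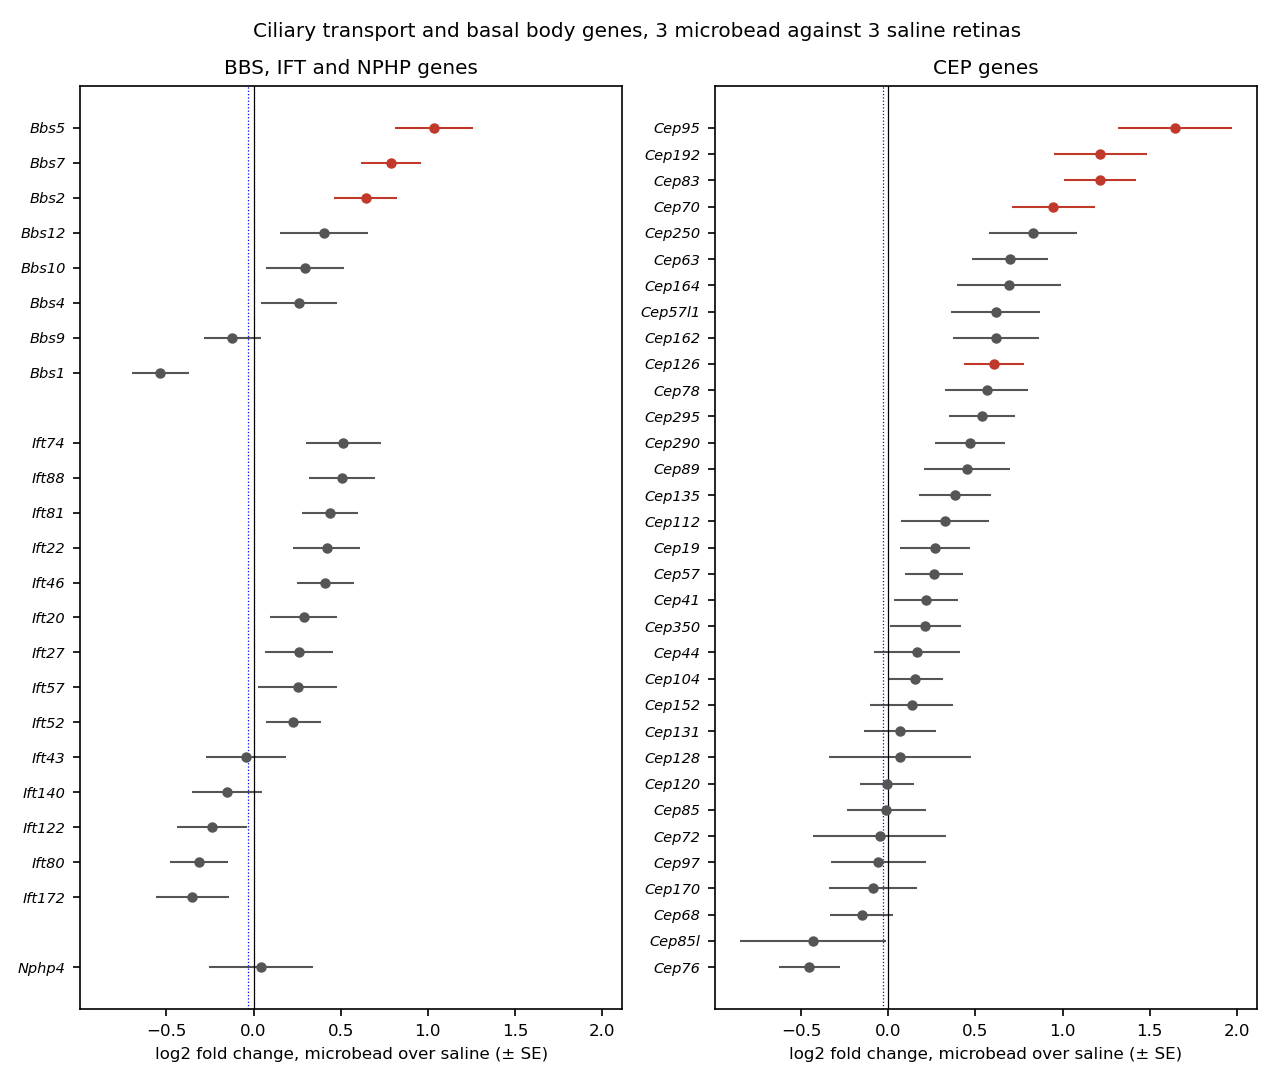
Log2 fold change of 56 of the 58 ciliary genes, microbead over saline, with its standard error (bars), ordered by size within the BBS, IFT and NPHP families (left) and among the CEP genes (right). The 8 genes past the threshold of edgeR's test are red, and all lie above 0, while the dotted line marks the median of all tested genes, -0.03.

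Among the BBS genes, 3 of 8 rose (37.5%), 0 fell and 5 did not pass the test, while 6.46% of all tested genes rose and 6.31% fell. The BBSome subunits moved unequally. Summed over the 8 genes, the saline libraries held 733, 645 and 675 CPM and the microbead libraries 1026, 789 and 808 CPM, without overlap. *Bbs5*, a subunit that binds membrane phosphoinositides, was at 49.96, 41.2 and 34.3 CPM in saline and 110, 75.5 and 71.1 CPM in microbead retinas. Every microbead value was above every saline value, with the highest in microbead replicate 1. On the log2 scale *Bbs5* rose by 1.03 ± 0.22 (standard error; edgeR adjusted p = 0.0227), or 105%. *Bbs7*, which pairs with *Bbs2* in the core of the complex, was at 150, 138 and 144 CPM in saline and 290, 224 and 231 CPM in microbead retinas, so that its saline values lay close together. It rose by 0.79 ± 0.17 (adjusted p = 0.0227), or 72.7%. *Bbs2* was at 99.4, 84.5 and 78.5 CPM in saline and 160, 123 and 127 CPM in microbead retinas, a rise of 0.64 ± 0.18 (adjusted p = 0.0467), or 56.4%. With each library left out in turn, *Bbs2* was past the threshold only without saline replicate 1, and *Bbs5* and *Bbs7* only without saline replicate 1, saline replicate 3 or microbead replicate 2. Their log2 fold changes ran from 0.51 to 1.18 over the 6 fits.

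*Bbs5* lies on the forward strand of chromosome 2 from 69647171 to 69667571, *Bbs7* on the reverse strand of chromosome 3 from 36573142 to 36613477, and *Bbs2* on the reverse strand of chromosome 8 from 94067954 to 94098928 (GRCm38, GENCODE vM21). None of them shares an exon base with another annotated gene, and 0% of the 100-base stretches of their transcripts occur in transcripts of another gene. *Bbs7* is the only gene of the 8 that rose with the inverted repeat in its window. The repeat begins 121 bases before the RefSeq start and 33 bases before the GENCODE start, since 88 of the 250 bases before the RefSeq start lie inside the GENCODE gene. The other 162 bases are shown (chr3:36613478-36613639, reverse strand).

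*Bbs7*: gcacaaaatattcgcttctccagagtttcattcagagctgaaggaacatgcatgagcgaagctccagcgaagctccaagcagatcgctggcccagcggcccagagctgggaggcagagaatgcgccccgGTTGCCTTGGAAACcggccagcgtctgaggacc

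The window of *Bbs5* holds an arm 42 bases past the start, shown in capitals in the stretch chr2:69647201-69647220 (forward strand), and that of *Bbs2* holds none.

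*Bbs5*: caaagccggcgcGTTGCCtt

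*Bbs1*, the subunit that contacts the small GTPase ARL6 when the BBSome is recruited to membranes, went the other way. It was at 120, 118 and 117 CPM in saline and at 70.7, 83.9 and 90.9 CPM in microbead retinas, so that the groups did not overlap, with an SD of 1.38 CPM in saline and 10.3 CPM in microbead retinas. Its log2 fold change was -0.53 (standard error 0.16) and missed the threshold of edgeR (adjusted p = 0.0603), while DESeq2 called it lower. *Bbs1* thus had the lowest log2 fold change of the 58 genes, and it stayed between -0.62 and -0.44 with each library left out. *Bbs9*, a scaffold subunit, was at 119, 105 and 130 CPM in saline and 117, 102 and 106 CPM in microbead retinas, and the groups overlapped (-0.12, adjusted p = 0.651). *Bbs4* was at 146, 125 and 137 CPM in saline and at 218, 134 and 138 CPM in microbead retinas. Only microbead replicate 1 stood above the saline range, and the log2 fold change was 0.26 with and -0.01 without it. *Bbs10* and *Bbs12*, chaperonin-like proteins needed to assemble the BBSome, had log2 fold changes of 0.29 and 0.40 (adjusted p = 0.399 and 0.308), with overlapping groups.

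Of the 14 IFT genes, 0 passed the threshold in either direction with edgeR, DESeq2 or limma-voom. These called 12.8%, 17% and 12.5% of all genes they tested. With edgeR 4 of the 14 had an unadjusted p under 0.05, all of them higher, while 15.3% of all tested genes were higher at that limit. Their sum was 550 to 636 CPM in saline and 630 to 693 CPM in microbead retinas, with overlap. The genes were grouped by complex from textbook membership, a grouping set after the values were seen. All 7 genes of the IFT-B core with an *Ift* symbol (*Ift22*, *Ift27*, *Ift46*, *Ift52*, *Ift74*, *Ift81* and *Ift88*) had log2 fold changes above 0, from 0.23 to 0.52, with a median of 0.42. In 6 of them (85.7%) all microbead retinas were above all saline retinas, against 18.8% of all tested genes. Other IFT-B core subunits carry other symbols and were named after their values were seen. *Ttc26* (0.05), *Ttc30b* (0.19) and *Ttc30a1* (-0.21) had overlapping groups. *Hspb11* (1.499) and *Ttc30a2* (0.55, with a saline mean of 0.528 CPM) had all microbead retinas above all saline retinas. *Ift81*, which with IFT74 binds tubulin, was at 59.2, 49.4 and 56.3 CPM in saline and 77.9, 74.6 and 70.8 CPM in microbead retinas, a log2 fold change of 0.44 (standard error 0.16, adjusted p = 0.0949). *Ift88*, needed for cilium assembly and for outer segments, was at 28.5, 24.8 and 20.0 CPM and at 37.6, 33.2 and 33.6 CPM (0.51, standard error 0.19, adjusted p = 0.0990). Both genes had separate groups with a gap wider than the SD of either group. *Ift74* (0.52), *Ift22* (0.42), *Ift46* (0.41), *Ift27* (0.26) and *Ift52* (0.23) had adjusted p-values of 0.119 to 0.393.

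Of the 4 genes of the IFT-B peripheral part with an *Ift* symbol, 2 were above 0 and 2 below. *Ift20*, which also serves cargo sorting at the Golgi, and *Ift57* had log2 fold changes of 0.29 and 0.25 with overlapping groups, and that of *Ift57* was -0.00 without microbead replicate 1. *Ift172*, which turns the trains at the ciliary tip, was at 74.5, 63.9 and 66.3 CPM in saline and 38.2, 62.2 and 60.0 CPM in microbead retinas. *Ift80* was at 73.4, 68.3 and 85.3 CPM in saline and at 62.5, 63.8 and 56.2 CPM in microbead retinas. For both, all microbead retinas were below all saline retinas, but the log2 fold changes of -0.35 and -0.31 missed the threshold (edgeR adjusted p = 0.285 for *Ift172*, 0.226 for *Ift80*). The 3 IFT-A genes with an *Ift* symbol had log2 fold changes of -0.24 for *Ift122*, -0.15 for *Ift140* and -0.05 for *Ift43* (adjusted p = 0.448, 0.646 and 0.916) and overlapping groups. Microbead replicate 1 set the low end for *Ift122* (42.3 CPM against 49.5 to 68.3 CPM in the other 5 libraries) and *Ift140* (28.8 CPM against 40.9 to 46.8 CPM). Without it the log2 fold change of *Ift140* was 0.02. The other IFT-A subunits, which carry other symbols and were named after their values were seen, did not share a direction: *Wdr19* (0.23) and *Ttc21b* (0.40) had all microbead retinas above and *Wdr35* (-0.50) all below the saline retinas, with 0 of them past the threshold (edgeR adjusted p = 0.361, 0.164 and 0.0770). Over all 6 IFT-A subunits, 4 were below 0 and 2 above, with a median of -0.10. The difference between IFT-B and IFT-A genes was not tested.

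**Figure D3:**
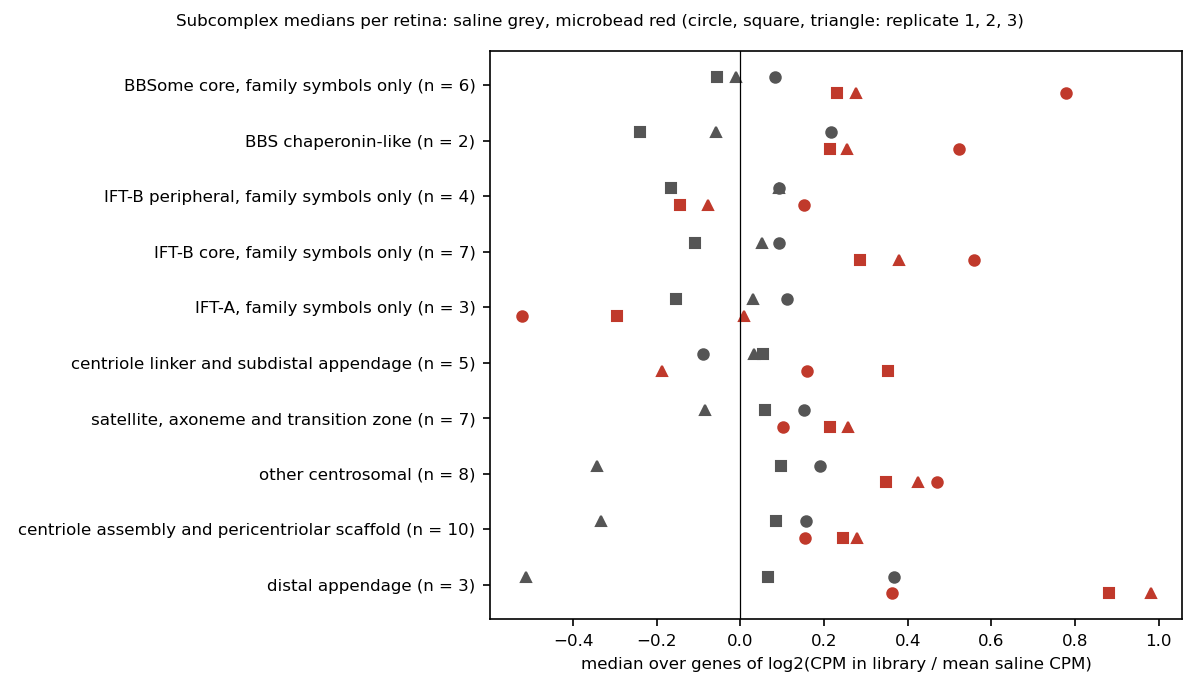
Median over the genes of each subcomplex of the log2 ratio of a library's CPM to the mean saline CPM of the gene, for the 3 saline (grey) and 3 microbead (red) retinas, with the number of genes in brackets, where the BBSome and IFT groups hold only genes with a *Bbs* or *Ift* symbol. The microbead retinas lie above the saline retinas for the IFT-B core (0.28 to 0.56 against -0.11 to 0.09), while for the 3 IFT-A genes shown they run from -0.52 to 0.01.

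Of the NPHP genes, *Nphp4*, which encodes a protein of the gate at the transition zone, was at 29.1, 27.4 and 17.8 CPM in saline and 16.3, 24.8 and 35.5 CPM in microbead retinas. The groups overlapped, and the microbead retinas held both the lowest and the highest value. The log2 difference was 0.04 ± 0.30 (edgeR adjusted p = 0.938), and its sign depended on the library left out (-0.28 to 0.28).

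Of the 33 CEP genes, 5 rose (15.2%), 0 fell and 28 did not pass the test, while 6.46% of all tested genes rose and 6.31% fell. Their sum was 1306, 1231 and 1016 CPM in saline and 1340, 1752 and 1647 CPM in microbead retinas, without overlap. Distal appendages anchor the mother centriole to the plasma membrane, and their assembly begins with CEP83, which brings in CEP89 and CEP164. *Cep83* was at 8.98, 9.46 and 8.19 CPM in saline and 19.5, 18.1 and 24.2 CPM in microbead retinas. The lowest microbead value was well above the highest saline value, and the saline SD was 0.640 CPM. It rose by 1.21 ± 0.21 on the log2 scale (edgeR adjusted p = 0.0143), or 132%, and *Cep83* had the smallest adjusted p of the 58 genes. It was past the threshold in 4 of the 6 fits with a library left out, and not without saline replicate 2 or microbead replicate 3, with log2 fold changes from 1.08 to 1.32. *Cep89* and *Cep164* had log2 fold changes of 0.45 and 0.69 and did not pass (adjusted p = 0.241 and 0.146), and *Cep89* was named after its values were seen. *Cep164*, which recruits the kinase that starts ciliogenesis, had the highest mean CPM of the CEP genes, 221, 179 and 114 CPM in saline and 177, 316 and 338 CPM in microbead retinas. Its groups overlapped, since microbead replicate 1 was within the saline range.

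*Cep83* lies on the forward strand of chromosome 10 from 94688654 to 94790853, shares no exon base with another annotated gene, and has no arm in its window. Of the 250 bases before its RefSeq start, 136 lie inside the GENCODE gene, and the other 114 (chr10:94688540-94688653, forward strand) are shown as an example without the motif.

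*Cep83*: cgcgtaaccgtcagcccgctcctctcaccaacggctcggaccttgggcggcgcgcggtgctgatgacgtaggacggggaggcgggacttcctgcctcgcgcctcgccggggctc

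*Cep126*, a protein of the centrosome and ciliary base, was at 24.4, 19.5 and 21.7 CPM in saline and 35.4, 33.0 and 31.5 CPM in microbead retinas. The retinas of each group lay close together, but the rise of 0.61 ± 0.17 (adjusted p = 0.0487), or 52.4%, was only just past the threshold, and with a library left out it passed only without saline replicate 1. *Cep126* lies on the reverse strand of chromosome 9 from 8076461 to 8134294. Its RefSeq window (chr9:8123665-8123914, reverse strand, for the 250 bases before the start) lies in an intron of the gene as GENCODE annotates it, and holds the arm GTTACC 228 bases before that start. The other RefSeq window of *Cep126*, at the GENCODE start, holds no arm.

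*Cep126*: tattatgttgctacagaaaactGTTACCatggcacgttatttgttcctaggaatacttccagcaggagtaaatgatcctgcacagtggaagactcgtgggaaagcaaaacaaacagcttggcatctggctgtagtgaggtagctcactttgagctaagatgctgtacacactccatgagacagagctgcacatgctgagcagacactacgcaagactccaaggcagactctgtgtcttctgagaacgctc

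Of the 8 genes that rose, 7 had a window and 3 of these (*Bbs5*, *Bbs7* and *Cep126*) held an arm, 42.9% against 41.7% of all 48 ciliary genes with a window. The motif was thus about as frequent among the genes that rose as among the ciliary genes at large.

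*Cep95* had the largest log2 fold change of the 58 genes, 1.65 ± 0.33 (edgeR adjusted p = 0.0182), a rise of 213%. It was at 17.9, 11.5 and 6.28 CPM in saline and 39.5, 36.8 and 35.6 CPM in microbead retinas. The microbead retinas were alike, while the saline retinas were spread widely, with saline replicate 3 the lowest. Without saline replicate 3 the log2 fold change was 1.34, and without saline replicate 1 it was 2.06. *Cep95* was past the threshold only in these 2 of the 6 fits. It lies on the forward strand of chromosome 11 from 106789252 to 106819930 and shares 1.596% of its exon bases with the antisense gene *Gm11706*. *Cep70*, which organizes microtubules at the centrosome through γ-tubulin, was at 7.65, 6.49 and 6.33 CPM in saline and 10.6, 15.6 and 13.3 CPM in microbead retinas. Its groups were separate, with a rise of 0.95 ± 0.24 (adjusted p = 0.0345), or 92.7%, and it was past the threshold only without saline replicate 1 or microbead replicate 1. *Cep70* lies on the forward strand of chromosome 9 from 99243367 to 99300404, and 5.53% of its exon bases lie opposite to exons of other genes.

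**Figure D4:**
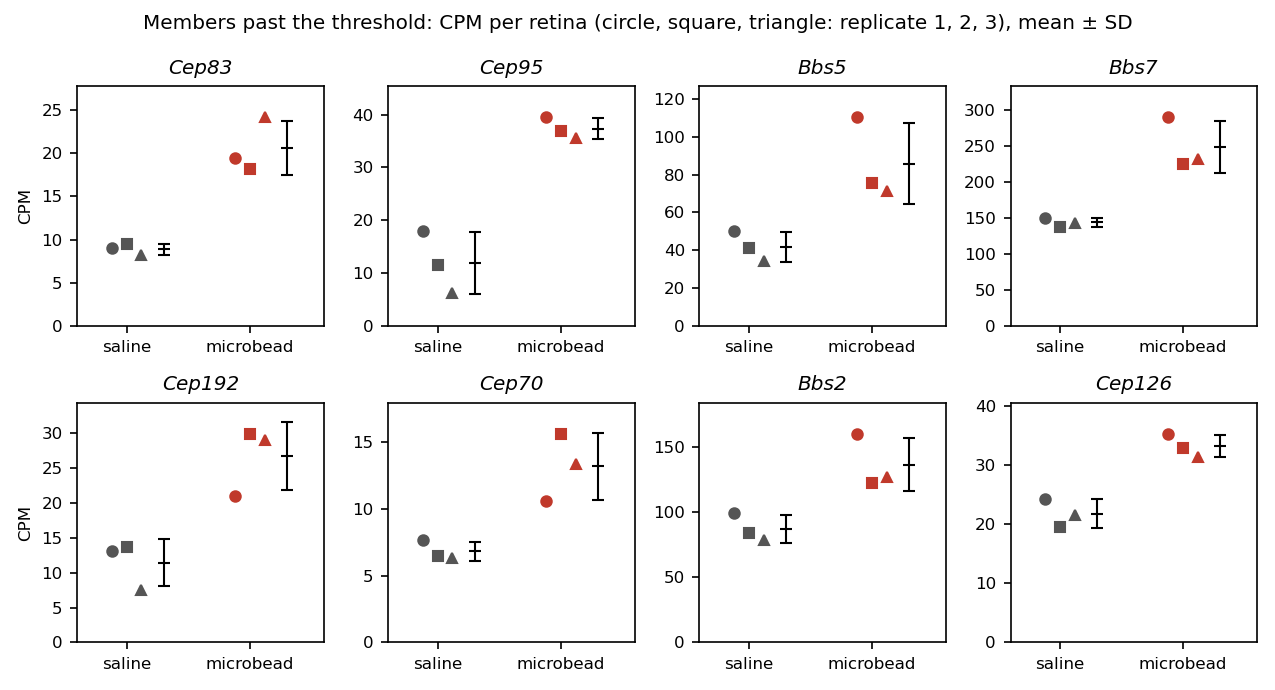
CPM of the 8 ciliary genes past the threshold in each saline (grey) and microbead (red) retina, with mean ± SD (black, n = 3 each), in order of adjusted p. In each panel the lowest microbead retina lies above the highest saline retina, as in *Cep83* (18.1 against 9.46 CPM).

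Genes of centriole assembly and of the pericentriolar scaffold gave 1 rise among 10 (10%), against 6.46% of all tested genes. *Cep192*, the scaffold that recruits the kinases PLK4 and Aurora A, was at 13.1, 13.7 and 7.53 CPM in saline and 21.0, 29.9 and 29.0 CPM in microbead retinas. All microbead retinas were above the saline retinas, of which replicate 3 was the lowest. The rise was 1.22 ± 0.27 (edgeR adjusted p = 0.0235), or 133%. With a library left out, *Cep192* was past the threshold only without saline replicate 1, saline replicate 3 or microbead replicate 1. It lies on the forward strand of chromosome 18 from 67800107 to 67885170. The other 9 genes had log2 fold changes from -0.45 (*Cep76*, an inhibitor of centriole reduplication) to 0.70 (*Cep63*, which with CEP152 starts a new centriole). *Cep63* was at 50.02, 43.3 and 28.7 CPM in saline and 69.6, 60.7 and 67.6 CPM in microbead retinas, separate groups with an adjusted p of 0.0633, and DESeq2 called it higher. *Cep76* was at 21.6, 23.8 and 22.1 CPM in saline and 17.6, 15.5 and 16.3 CPM in microbead retinas, the only CEP gene with all microbead retinas below (adjusted p = 0.117). *Cep120*, needed for centriole elongation and among the most abundant of the group, was at 128 ± 8.86 CPM in saline and 128 ± 2.12 CPM in microbead retinas (SD, n = 3 each). Its log2 fold change was -0.01 with a standard error of 0.15. *Cep63*, *Cep76* and *Cep120* were chosen after their values were seen.

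*Cep250*, which links the centrioles of a pair, was at 121, 108 and 93.8 CPM in saline and 120, 236 and 218 CPM in microbead retinas. As with *Cep164*, microbead replicate 1 was within the saline range while the other microbead retinas were above all saline retinas. The log2 difference of 0.83 ± 0.25 missed the threshold (edgeR adjusted p = 0.0594), DESeq2 called it higher, and without microbead replicate 1 it was past the threshold of edgeR with a log2 fold change of 1.08. Of its exon bases, 11.1% lie opposite to exons of *6430550D23Rik*, and the strand setting of the counting is not given in the sources used here. *Cep290*, whose product spans from the microtubules to the membrane of the connecting cilium and which is often mutated in Leber congenital amaurosis, was at 90.2, 76.8 and 76.5 CPM in saline and 100, 143 and 93.5 CPM in microbead retinas. The groups were separate by a narrow gap, with a log2 difference of 0.47 ± 0.20 (adjusted p = 0.144). Of the exon bases of *Cep290*, 7.58% lie opposite to exons of *4930430F08Rik*. At the low end, *Cep72*, a protein of centriolar satellites, was at 2.00 to 2.82 CPM in saline and 1.595 to 2.82 CPM in microbead retinas. With its standard error of 0.38, a change of the size seen for *Bbs2* was not detectable there.

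The other groups of CEP genes, set from textbook roles after the values were seen, held 3 of the 5 rises. Of 8 centrosomal genes without a place in the other groups, 2 rose (25%, *Cep70* and *Cep95*), against 6.46% of all tested genes. The median log2 fold change of the 8 was 0.45. In 5 of the 8 (62.5%) all microbead retinas were above all saline retinas, against 18.8% of all tested genes. Of 7 genes of satellites, axoneme and transition zone, 1 rose (14.3%, *Cep126*), and the median was 0.22. Of 5 genes of the centriole linker and subdistal appendages, *Cep250* among them, 0 passed with edgeR, 1 had an unadjusted p under 0.05 and 1 was called by DESeq2, and the median was 0.07.

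Between genes, levels were compared per length of the annotated exons. The exons were merged over all annotated transcripts, and which of these are present in the retina was not determined, so the order of genes depends on the annotation. On this scale (CPM per kilobase of merged exons, mean of the saline retinas) *Ift20* (30.3), *Bbs7* (26.7) and *Bbs2* (26.4) were the highest of the 58 genes, and *Cep128* (0.240), *Cep72* (0.297) and *Cep85l* (0.394) the lowest. *Cep128* and *Cep85l* were named for these values. In microbead retinas, *Bbs7* (46.1) and *Bbs2* (41.3) were above *Ift20* (37.1). Within the BBSome core, the 6 genes with a *Bbs* symbol ran from 15.4 (*Bbs1*) to 26.7 (*Bbs7*) in saline and from 10.7 (*Bbs1*) to 46.1 (*Bbs7*) in microbead retinas. The 5 genes that rose among the CEP genes were of low to moderate level in saline retinas, from 0.917 (*Cep192*) to 4.73 (*Cep126*).

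The other genes of the ciliary machinery, whose symbols do not follow the family names, were taken from 8 lists of 110 genes, of which 106 were tested. Of these, 11 rose (10.4%), 2 fell and 93 did not pass, with a median log2 fold change of 0.18. Among 10 other genes of the BBSome and its partners, 6 had log2 fold changes below 0, with a median of -0.01, and 2 rose (20%). The 2 were *Rabl2* (1.29, adjusted p = 0.00681), a GTPase that binds the IFT-B complex, and the BBSome subunit *Ttc8* (0.60, adjusted p = 0.0394). Among other IFT subunits, 1 of 10 rose (10%), *Hspb11* (1.499, adjusted p = 0.0174), the IFT25 partner of IFT27, from 7.97 to 22.5 CPM. Of 27 other centriole and satellite genes, 5 rose (18.5%), with a median of 0.43. They were led by *Cntrl* (1.19, adjusted p = 0.0263), a component of subdistal appendages, and *Dzip1* (1.16, adjusted p = 0.0102), which acts at the ciliary base. Of 21 other transition zone genes, 1 rose (4.76%, below the share of all genes), *Cc2d2a* (0.81, adjusted p = 0.0435), and the median was 0.19. Of 10 ciliary GTPase and lipid cargo genes, 1 rose (10%), the phosphoinositide phosphatase *Inpp5e* (0.61, adjusted p = 0.0479), and the median was 0.0043.

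The 10 motor genes, of kinesin-2 and dynein-2, held 0 calls with a median of -0.13, and *Kif17* (0.73) and the dynein-2 heavy chain *Dync2h1* (-0.66) had adjusted p-values of 0.174 and 0.0882 from edgeR. Of 12 genes of the photoreceptor connecting cilium and axoneme, 1 rose (8.33%) and 2 fell (16.7%), against 6.46% and 6.31% of all tested genes. *Prom1*, a protein of nascent outer segment discs, fell from 779 to 423 CPM (-0.88, adjusted p = 0.0222) and *Rp1l1*, an axonemal protein, from 684 to 381 CPM (-0.85, adjusted p = 0.0248), while *Fam161a*, a protein of the connecting cilium, rose from 171 to 310 CPM (0.85, adjusted p = 0.0368). *Rpgr*, which had the largest change of this list, did not pass (1.02, adjusted p = 0.0624). *Rp1l1* and *Fam161a* were chosen after their values were seen. Of 6 genes tested from the list of RFX factors and *Foxj1*, 0 passed with edgeR and 4 had overlapping groups. Their log2 fold changes ran from 0.03 to 0.84, and *Rfx3* and *Rfx7*, named after their values were seen, were both at 0.03. With an unadjusted p under 0.05, 2 were higher, against 15.3% of all tested genes. Whether these factors act on ciliary genes in the retina was not tested. The largest was *Rfx1* (0.84, adjusted p = 0.0859), and *Rfx5* (0.75) missed the threshold by a narrow margin.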

How the data were processed

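Poly(A) RNA of 3 saline and 3 microbead retinas was sequenced with 100-base paired reads. The authors aligned the reads with STAR 2.5.3a to GRCm38.p5 with GENCODE vM12 and counted them per gene with featureCounts 1.15.2, and the deposited counts are not normalized. The treatment of reads with several placements and the strand setting are not given in the sources used here. The same deposited table holds the authors' DESeq2 comparison (a mean signal, a log2 fold change, a linear fold change or ratio, p-values and a column of calls), which was not used.

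Low genes were removed by filterByExpr, with a count of at least 10 and a total of at least 15. After TMM scaling, the groups were compared over all 17707 genes with edgeR 4.0.16 in R 4.3.3 (quasi-likelihood test, two-sided, Benjamini-Hochberg adjustment, threshold 0.05). Adjusted p-values without a named tool are from this fit. The standard error is the log2 fold change divided by the root of the F statistic. At 13574949 counts, 3 counts correspond to 0.221 CPM per unscaled library size, for counting error only. Chi-square over its degrees of freedom was 20.1 or more for each pair of libraries of a group, so no library was counted as a copy. The steps were tested on simulated data.

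The members and lists were chosen with earlier results of these data known. Named were the *Bbs*, *Ift* and *Nphp* genes (some results are not reported here), *Cep* genes past the threshold, *Cep83*, *Cep164*, *Cep192*, *Cep250* and *Cep290*, the highest and lowest *Cep* gene by CPM, and at most 2 genes of each other list, with exceptions marked. Lengths and positions are from GENCODE vM21, which has the same genome build, and promoters from RefSeq. The test was repeated with scaling by RLE or upper quartile, without mitochondrial genes in the library sizes, with other filters, with DESeq2 1.42.0 and limma-voom (limma 3.58.1), with replicate blocks, with a spline offset (5 degrees of freedom) for GC and length, after thinning to 13574949 counts, at stricter thresholds and with single libraries removed.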

Additional observations from a re-analysis of the deposited data

How the results depend on the processing

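The 8 ciliary genes that rose were the same 8 with RLE scaling, upper-quartile scaling, library sizes without mitochondrial genes and limma-voom. The number, with the share of all genes that rose in the same fit after it, was 8 (6.46%) as reported, 11 without the filter on low counts (4.85%; 7 of the 8, *Cep126* lost), 9 with at least 10 counts in every library (8.30%), 11 with DESeq2 (8.58%), 8 after thinning to the smallest library (7.14%; *Cep250* in place of *Cep70*) and 13 with the offset for GC content and length (7.78%), which added *Cep63*, *Cep162*, *Cep250*, *Cep290* and *Cep295*. It was 4 at more than 2-fold (4.26%), 0 at an adjusted p under 0.01 (0.311%), 4 with the replicate block (2.71%), 5 with the block and the offset together (4.03%), and 0 to 10 when single libraries were removed. In either direction the block called 5.11% of all genes, against 6.90% of the ciliary genes. The deviations of same-numbered libraries correlated at r = -0.04, 0.14 and 0.01 over genes, and not every library correlated best with its own number. With 3 libraries per group these values cannot settle whether same-numbered libraries share more than a number. The number that fell was 0 in all fits except DESeq2, with 1 (*Bbs1*). The median log2 fold change was 0.21 to 0.31 with all 6 libraries and 0.23 to 0.36 with each left out. That of all tested genes was -0.23 without the filter on low counts and between -0.04 and 0.01 in the other fits with all libraries. Of the exon bases of *Cep295*, 19.1% lie opposite to exons of other genes.

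Signs turned for small changes that were not past the threshold: *Cep72* was at 0.0305 with the offset and 0.0213 with the offset and block, and *Nphp4* at -0.0021 without the filter and -0.0203 with limma-voom. With each library left out, they turned for *Bbs4* (-0.0095 to 0.40), *Cep72* (-0.18 to 0.17), *Ift140* (-0.29 to 0.0209), *Ift43* (-0.25 to 0.17), *Ift57* (-0.0021 to 0.43) and *Nphp4* (-0.28 to 0.28). The causes were not tested. The standard errors of *Cep72*, *Cep85l* and *Cep128* were 0.38 to 0.42 against a median of 0.21, and the part of depth in them was not tested.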

Other observations

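Of the 58 ciliary genes, 11 lie on chromosome 9 (19.0%), which holds 5.91% of all tested genes, among them *Bbs4*, *Bbs9*, *Cep70*, *Cep126* and *Cep164*. The ciliary genes had a median GC content of 46.6% against 49.5% over all tested genes. Across the 58 genes, Spearman's rho of the log2 fold change was -0.26 with GC content and -0.11 with exon length, against 0.0024 and -0.14 over all tested genes. Genes share libraries and base composition and are not independent, so these values are descriptions.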
